A study of Mus musculus with 14 samples.

Results

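Transcripts of 10 antioxidant enzymes were followed in haematopoietic stem cells (HSCs), which renew themselves in the marrow and give rise to all blood lineages. The enzymes were Sod1, Sod2, Cat, Gpx1, Gpx4, Prdx1, Txn1, Txnrd1, Hmox1 and Nqo1, chosen by name, with earlier results of these data known. Each was the label that equals the gene name in all 14 files. No member had a second, numbered copy. They were 10 of 48714 gene labels, and all 10 were among the 9921 labels with a mean of 1 RPKM or more (read number divided by gene length and by the size of the library), which were tested. The HSCs came from the bone marrow of C57BL/6 mice and were sorted into a [Ca2+]high population, here calcium-high, and a [Ca2+]low population, here calcium-low. Each group had 7 libraries of total RNA, numbered 1 to 7, each from 100 sorted cells. No treatment or genetic change is given for either group, and neither the age nor the sex of the mice is stated. The title of the series sets dormant against active HSCs and ties dormancy to cytoplasmic calcium, and the comparison asks here whether transcripts of redox defence go with the calcium level.

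Superoxide leaks from mitochondria and is made by oxidases of the cell membrane. Superoxide dismutases turn it into hydrogen peroxide, and catalase, glutathione peroxidases and peroxiredoxins remove the peroxide. Thioredoxin and thioredoxin reductase return oxidised peroxiredoxins and other proteins to their reduced form, with electrons from NADPH. Hmox1 and Nqo1 are classic inducible enzymes, transcribed when the factor NRF2 binds antioxidant response elements in their regulatory regions. HSCs keep reactive oxygen low in the marrow niche, and a rise in it is known to push them out of quiescence and to impair their long-term function.

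Of these enzymes, Gpx1, Gpx4 and Txnrd1 are selenoproteins: a TGA codon that would elsewhere end translation is read as selenocysteine, the residue of their active site. The codons are shown because they set these enzymes apart from the other members at the level of the message. Each is given on the coding strand (all on the + strand of GRCm38, GENCODE M21 transcripts), with up to 4 codons on each side and the selenocysteine codon in capitals. It is codon 47 of 201 in Gpx1 (chr9:108339451-108339453), codon 129 of 253 in the Gpx4 transcript used here (chr10:80054737-80054739) and codon 612 of 613 in Txnrd1 (chr10:82896037-82896039), where it is the last codon but one.
Gpx1: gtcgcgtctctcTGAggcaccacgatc
Gpx4: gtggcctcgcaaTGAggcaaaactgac
Txnrd1: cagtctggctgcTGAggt

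Promoters of the members were searched for the core of the antioxidant response element, TGACNNNGC, and for the AP-1 site TGACTCA, on both strands. The windows were the 250 bases before each annotated start (RefSeq, GRCm38.p6), and the table held 14 windows for 9 members, with no entry for Hmox1. The element core was found in 3 of the 14 windows, 1 each of Sod1, Prdx1 and Txnrd1, and in 10.2% of all 32851 promoter windows of that length. The AP-1 site was found in 1 of the 14 windows, that of Prdx1, and in 4.46% of all windows. The 3 windows are shown with the matched letters in capitals, all from the + strand: Sod1 at chr16:90220512-90220761, Prdx1 at chr4:116685349-116685598, and the second of 3 Txnrd1 windows at chr10:82858956-82859205.
Sod1: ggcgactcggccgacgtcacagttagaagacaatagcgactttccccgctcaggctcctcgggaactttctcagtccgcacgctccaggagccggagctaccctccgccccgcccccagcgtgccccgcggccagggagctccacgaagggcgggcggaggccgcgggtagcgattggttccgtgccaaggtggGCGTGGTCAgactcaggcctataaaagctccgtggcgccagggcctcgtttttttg
Prdx1: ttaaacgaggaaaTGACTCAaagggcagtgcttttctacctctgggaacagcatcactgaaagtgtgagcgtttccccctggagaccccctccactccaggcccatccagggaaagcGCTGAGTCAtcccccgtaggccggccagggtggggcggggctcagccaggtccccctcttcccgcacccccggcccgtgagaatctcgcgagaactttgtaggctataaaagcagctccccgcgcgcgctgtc
Txnrd1: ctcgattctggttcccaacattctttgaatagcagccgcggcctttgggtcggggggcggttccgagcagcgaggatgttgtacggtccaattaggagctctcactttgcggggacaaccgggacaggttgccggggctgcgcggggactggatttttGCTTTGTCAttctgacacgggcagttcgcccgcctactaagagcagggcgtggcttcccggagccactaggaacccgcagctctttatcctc
Positions were counted back from the RefSeq start, with -1 the base before it. The core began at -56 in Sod1, at -133 in Prdx1 and at -92 in Txnrd1, on the - strand in each. RefSeq starts can differ from the GENCODE gene starts given below. The Sod1 and Prdx1 windows end at 90220761 and 116685598, past the GENCODE gene starts at 90220754 and 116685544. The Prdx1 match overlapped an AP-1 site at -131, and a second AP-1 site began at -237. A match describes these letters and is not evidence of a bound factor.

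The libraries held 3575282 to 7387840 reads in listed genes in replicates 1 to 3. In replicates 4 to 7 they held 8280756 to 10296347, so values in replicates 4 to 7 rest on more reads. These 2 sets are also separate runs of sample numbers, though no label says that they were prepared apart. Whether libraries came from separate mice is not stated, and p-values therefore measure only the spread between these samples, which may be technical. HSC markers (11 of 11 genes above 0) summed to 191 to 363 RPKM in calcium-high libraries, against 187 to 295 RPKM in calcium-low libraries, with both lowest values in replicate 3. Calcium-low replicate 3 held 771 RPKM of neutrophil markers, 177 RPKM of erythroid markers and 278 RPKM of cell cycle genes, against at most 44.5, 39.7 and 100.4 RPKM in the other calcium-low libraries. Calcium-high replicate 3 held 95.6 RPKM of erythroid markers, and the other calcium-high libraries at most 67.5 RPKM. Car1 made up 65.3% of that erythroid sum, and 67.6% of the one in calcium-low replicate 3. Hbb-bt led the erythroid sum in every library outside replicate 3, yet its lowest calcium-high value, 7.97 RPKM, was that of replicate 3. Tfrc and Ermap, like Car1, were highest in replicate 3 of both groups. B cell markers summed to 2.91 to 6.09 RPKM in calcium-high HSCs, against 3.59 to 6.27 RPKM in calcium-low HSCs, with Ms4a1 at 0, and most of the sum was Cd79b (2.82 to 5.95 RPKM in calcium-high HSCs, against 3.25 to 6.22 RPKM in calcium-low HSCs). T and NK cell markers summed to 3.46 to 18.1 RPKM in the calcium-high group and 11.6 to 33.0 RPKM in the calcium-low group, with Cd3e, Cd3g, Gzma and Trac at 0. Nearly all of that sum was Nkg7, at 3.38 to 18.1 RPKM in the calcium-high group and 11.4 to 33.0 RPKM in the calcium-low group, and Cd3d was at most 0.232 RPKM. Each replicate number joins a calcium-high with a calcium-low library, and differences within these 7 pairs are given beside the tests.

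No antioxidant enzyme among the 10 passed the test on RPKM between calcium-high and calcium-low HSCs, over all libraries and with or without pairing. Their levels overlapped between the groups of 7 libraries in each of the 10 cases, and groups that do not overlap were seen in 0.141% of all tested genes. By limma on log2(RPKM + 1), 0 of 10 passed an adjusted p under 0.05, and the background was 0% of all tested genes. The smallest adjusted p of a member was 0.823, that of Prdx1. A second fit took the replicate number as a block, so that the test uses differences within pairs. It again called 0 of 10 members, against a background of 0.917% of all tested genes (0.484% higher, 0.433% lower). The smallest member adjusted p was then 0.301, that of Hmox1. At an unadjusted p under 0.05 there were 0 members without the block, against 6.74% of all tested genes, and 4 with it, Sod1, Gpx1, Prdx1 and Hmox1, against 13.9%. Of the 10 members 4 were higher and 6 lower in calcium-high HSCs, and 57.8% of all tested genes were lower. The median log2 difference was -0.06 over the members and -0.03 over all tested genes. Because each library is a bulk sample of sorted cells, fewer cells that express a gene and less of its RNA in each cell cannot be told apart.

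**Figure D1:**
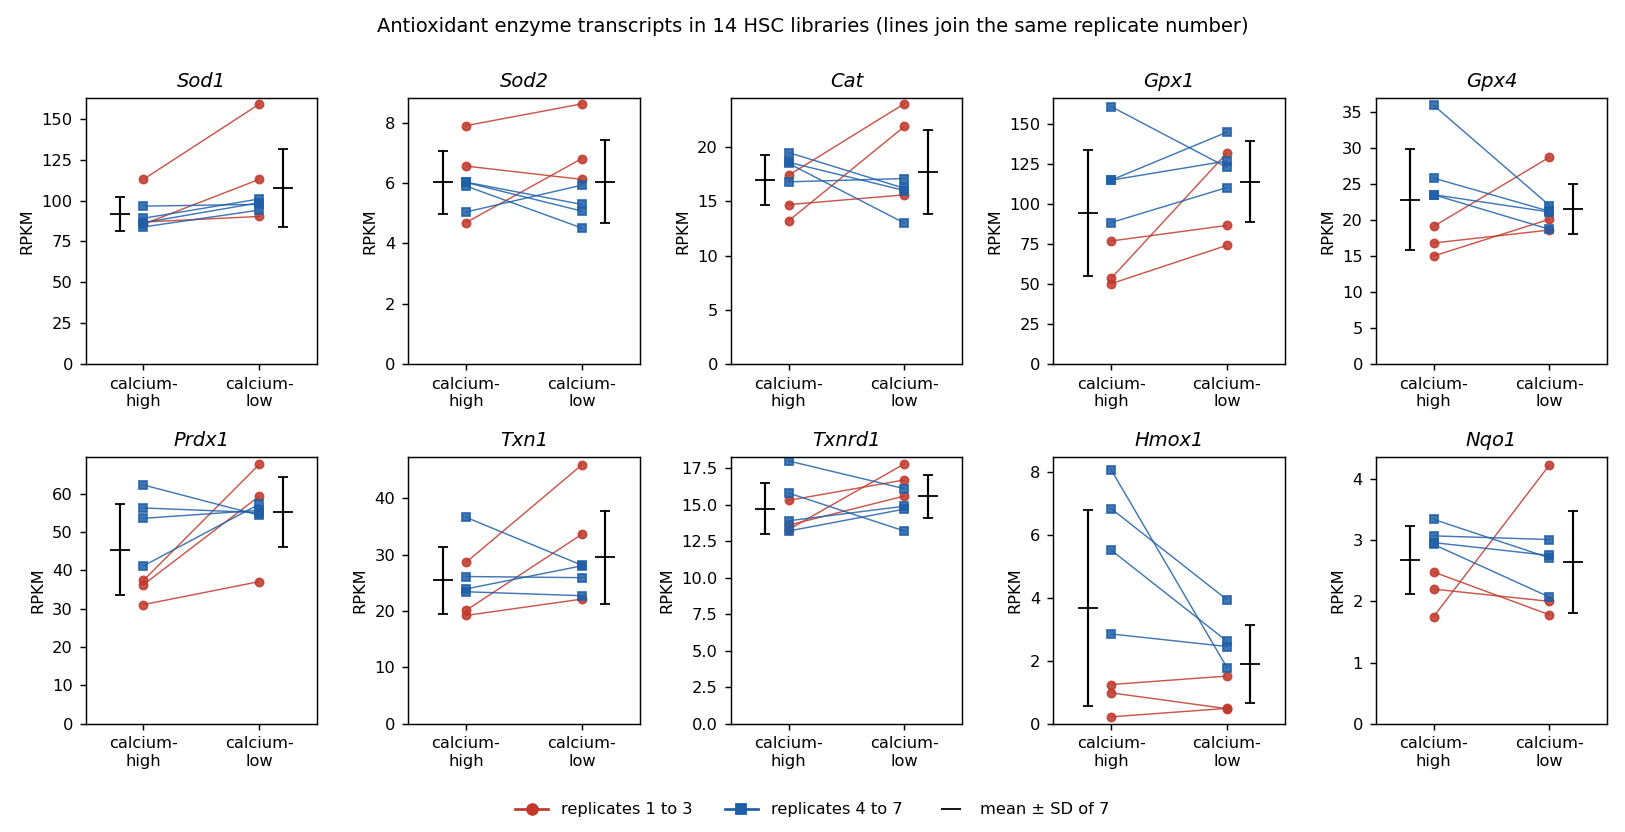
RPKM of the 10 antioxidant enzymes in the 7 calcium-high and 7 calcium-low libraries. Points are libraries, lines join the same replicate number, colours mark replicates 1 to 3 and 4 to 7, and bars are the mean ± SD of 7. The groups overlap in every panel, the Sod1 lines all slope to a higher calcium-low value, and Hmox1 separates the 2 colours.

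Sod1, the copper and zinc superoxide dismutase of the cytosol (chromosome 16, 90220754 to 90226329), was lower in calcium-high libraries in 7 of 7 pairs. It ran from 83.9 through a median of 86.9 to 113 RPKM in calcium-high libraries, and from 90.3 through 98.7 to 159 RPKM in calcium-low libraries. In both groups replicate 3 was the highest library, and the groups overlapped between 90.3 and 113 RPKM. The means were 91.7 ± 10.3 RPKM in calcium-high libraries, against 108 ± 23.6 RPKM in calcium-low libraries (SD, n = 7). The log2 difference was -0.21 ± 0.13 (SE; limma adjusted p = 0.865), with a limma adjusted p of 0.323 with the block. A difference of 7 of 7 pairs in the lower direction was found in 3.02% of all tested genes, and Sod1 was the 1 member of 10 that showed it. Without calcium-low replicate 3 alone the log2 difference was -0.12, and the calcium-low mean was 99.3 ± 7.92 RPKM (SD, n = 6). Without replicate 3 of both groups the log2 difference was -0.17 ± 0.10 (SE; limma adjusted p = 0.675). In replicates 4 to 7 the ranges were 83.9 to 96.6 RPKM in calcium-high HSCs, against 94.2 to 101 RPKM in calcium-low HSCs, which overlap, and the log2 difference was -0.14 ± 0.07 (SE; limma adjusted p = 0.250). Calcium-low replicate 3 was also the library with the high neutrophil, erythroid and cell cycle sums, and their part in its Sod1 value was not tested.

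Sod2, the manganese superoxide dismutase of mitochondria (chromosome 17, 13006846 to 13040063), was at nearly equal means, 6.02 ± 1.05 RPKM in calcium-high libraries, against 6.05 ± 1.36 RPKM in calcium-low libraries. It ran from 4.69 through a median of 6.02 to 7.90 RPKM in calcium-high libraries and from 4.51 through 5.93 to 8.62 RPKM in calcium-low libraries. The calcium-low range enclosed that of calcium-high, and replicate 3 was again the highest in both. On the log2 scale the difference was 0.00 with a 95% interval of -0.27 to 0.28, and the direction was mixed, higher in 4 pairs and lower in 3. Ccs, the chaperone that loads copper into Sod1, averaged 5.07 ± 0.732 RPKM in calcium-high HSCs, against 4.10 ± 0.933 RPKM in calcium-low HSCs, higher in 5 of 7 pairs (limma adjusted p = 0.737, and 0.353 with the block).

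Cat, catalase, which breaks down hydrogen peroxide in peroxisomes (chromosome 2, 103453849 to 103485160), averaged 17.0 ± 2.28 RPKM in calcium-high libraries, against 17.7 ± 3.88 RPKM in calcium-low libraries. It ran from 13.2 through a median of 17.4 to 19.5 RPKM in calcium-high libraries and from 13 through 16.2 to 24.0 RPKM in calcium-low libraries. Both highest calcium-low values came from replicates 1 and 3, and the calcium-low range again enclosed that of calcium-high. Its log2 difference was -0.04 ± 0.14 (SE; limma adjusted p = 0.998). Cat was lower in calcium-high libraries in pairs 1 to 4 and higher in pairs 5 to 7.

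Gpx1, the main glutathione peroxidase of the cytosol and mitochondria (chromosome 9, 108338903 to 108340343), was the member with the largest SD over the 14 libraries, 33.4 RPKM. It ran from 50.3 through a median of 88.5 to 161 RPKM in calcium-high libraries and from 74.3 through 123 to 145 RPKM in calcium-low libraries. The 3 lowest calcium-high values, 50.3, 53.6 and 77.0 RPKM, were those of replicates 1 to 3, and the calcium-high range enclosed that of calcium-low. Gpx1 was lower in calcium-high libraries in 6 of 7 pairs, with log2 differences of -0.14 to -1.29, and higher by 0.39 in pair 5. The means were 94.4 ± 39.2 RPKM in calcium-high HSCs, against 114 ± 25.5 RPKM in calcium-low HSCs, a log2 difference of -0.34 ± 0.24 (SE; limma adjusted p = 0.910, and 0.354 with the block). Leaving out single libraries moved this difference between -0.49 and -0.21.

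Gpx4, which reduces lipid peroxides in membranes and so holds back ferroptosis (chromosome 10, 80047166 to 80056439), had opposite signs in the 2 sets of libraries. It ran from 15.0 through a median of 23.5 to 35.9 RPKM in calcium-high libraries and from 18.6 through 21.1 to 28.7 RPKM in calcium-low libraries. The highest calcium-high value was that of replicate 5 and the highest calcium-low value that of replicate 1, and the calcium-high range enclosed that of calcium-low. Over all 14 libraries the log2 difference was 0.04 ± 0.16 (SE; limma adjusted p = 0.998). Gpx4 was lower in calcium-high libraries in pairs 1 to 3 and higher in pairs 4 to 7, a pattern found in 9.90% of all tested genes. In replicates 4 to 7 it was at 23.5, 35.9, 25.8 and 23.5 RPKM in calcium-high libraries, against 21.1, 22.0, 21.2 and 18.7 RPKM in calcium-low libraries. These ranges do not overlap, and the same held upward for 13.8% of all tested genes. The log2 difference there was 0.35 ± 0.12 (SE; limma adjusted p = 0.106, and 0.0585 with the block), so it did not pass.

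Prdx1, a peroxiredoxin that removes hydrogen peroxide in the cytosol (chromosome 4, 116685544 to 116700822), was lower in calcium-high libraries in 5 of 7 pairs. It ran from 31.1 through a median of 41.2 to 62.3 RPKM in calcium-high libraries and from 37.1 through 55.7 to 67.7 RPKM in calcium-low libraries. In calcium-low libraries 5 of 7 values lay between 54.4 and 59.4 RPKM, with replicate 2 at 37.1 and replicate 3 at 67.7 RPKM, and the groups overlapped. The means were 45.5 ± 11.8 RPKM in calcium-high libraries, against 55.3 ± 9.18 RPKM in calcium-low libraries, a log2 difference of -0.30 ± 0.17 (SE; limma adjusted p = 0.823, and 0.327 with the block). It was larger in size in replicates 1 to 3, -0.59 ± 0.23 (SE; limma adjusted p = 0.421), against -0.07 ± 0.11 in replicates 4 to 7 (SE; limma adjusted p = 0.695). The difference between the sets had a limma adjusted p of 0.180.

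Txn1, thioredoxin, the small protein that reduces disulphides (chromosome 4, 57943373 to 57956411), ran from 19.2 through a median of 23.9 to 36.6 RPKM in calcium-high libraries and from 22.1 through 28.0 to 45.9 RPKM in calcium-low libraries. The highest value, 45.9 RPKM, was that of calcium-low replicate 3, and the groups overlapped over most of their range. The log2 difference was -0.20 ± 0.17 (SE; limma adjusted p = 0.973), and -0.09 without calcium-low replicate 3. It was lower in 4 pairs, 1 to 4, and higher in 3.

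Txnrd1, the cytosolic reductase that recharges thioredoxin (chromosome 10, 82833951 to 82897712), varied least of all members relative to its level, with 15.1 ± 1.63 RPKM over the 14 libraries (SD). It ran from 13.2 through a median of 13.9 to 18.0 RPKM in calcium-high libraries and from 13.2 through 15.6 to 17.8 RPKM in calcium-low libraries, so that the ranges nearly coincided. On the log2 scale the difference was -0.08 with a 95% interval of -0.29 to 0.14 (limma adjusted p = 0.992). In replicates 1 to 3 the libraries were at 13.3, 13.6 and 15.3 RPKM in calcium-high HSCs, against 17.8, 15.6 and 16.7 RPKM in calcium-low HSCs, without overlap. The same held downward for 19.7% of all tested genes in that set, and in replicates 4 to 7 Txnrd1 was higher in 2 pairs and lower in 2.

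Hmox1, haem oxygenase, which degrades haem to biliverdin, iron and carbon monoxide (chromosome 8, 75093621 to 75100589), was the member with the largest ratio of means, 1.94, on as few as 5 reads in a library. In calcium-high libraries it was at 0.986, 0.222, 1.25, 8.09, 6.85, 5.53 and 2.86 RPKM in replicates 1 to 7, on 5 to 372 reads. In calcium-low libraries it was at 0.481, 0.491, 1.52, 1.79, 3.95, 2.63 and 2.46 RPKM, on 11 to 215 reads. The 3 highest values were calcium-high replicates 4 to 6, the lowest was calcium-high replicate 2, and the calcium-high range enclosed that of calcium-low. The means were 3.68 ± 3.13 RPKM in calcium-high libraries, against 1.90 ± 1.24 RPKM in calcium-low libraries, higher in 5 of 7 pairs. Its log2 difference was 0.48 ± 0.42 (SE; limma adjusted p = 0.973), and with the block it was 0.48 ± 0.20 (SE; limma adjusted p = 0.301).

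Hmox1 passed in 2 fits added after the data were seen, and it was the 1 member to do so in any fit run. The first used replicates 4 to 7 with the block. Its log2 difference there was 0.84 ± 0.20 (SE; limma adjusted p = 0.0396), and it was higher in 4 of 4 pairs by 0.16 to 1.70. That fit called 6.61% of all tested genes, so 1 of 10 members was near the background. Without the block the same libraries gave Hmox1 an adjusted p of 0.0564 by limma, and 0 of 10 members passed, against 8.14% of all tested genes. On whole reads recovered from the RPKM values, limma-voom with the block over all 14 libraries gave 1.03 ± 0.27 (SE; adjusted p = 0.0308), in a fit that called 8.62% of all tested genes. That fit weighted the libraries of replicates 1 to 3 by 0.557 to 2.03 and those of replicates 4 to 7 by 0.711 to 1.48. Centred within its set, the correlation of libraries with the same number was -0.0647 to 0.123 in replicates 4 to 7, so the pairing there rests on the shared number. In replicates 1 to 3 the log2 difference was -0.01 ± 0.31 (SE; limma adjusted p = 0.991).

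Markers of macrophages and monocytes, cells known to carry much Hmox1, were low, with their highest sums in some of the same libraries. All 10 markers were above 0 in some library, but only 1, Cd68, had a mean of 1 RPKM or more. The sum of the 10 markers was 1.29 to 16.7 RPKM in calcium-high HSCs, against 1.76 to 5.07 RPKM in calcium-low HSCs. In calcium-high replicates 4 to 7 the sum was 8.56, 16.7, 9.12 and 2.53 RPKM, beside Hmox1 at 8.09, 6.85, 5.53 and 2.86 RPKM. In calcium-low replicates 4 to 7 it was 2.68, 5.07, 3.64 and 2.24 RPKM, beside Hmox1 at 1.79, 3.95, 2.63 and 2.46 RPKM. In calcium-high replicates 1 to 3 it was 1.32, 1.29 and 2.05 RPKM, beside Hmox1 at 0.986, 0.222 and 1.25 RPKM. In calcium-low replicates 1 to 3 it was 2.71, 1.76 and 1.99 RPKM, beside Hmox1 at 0.481, 0.491 and 1.52 RPKM. Calcium-low replicates 1 and 4 thus had nearly equal sums, 2.71 and 2.68 RPKM, with Hmox1 at 0.481 and 1.79 RPKM. The 3 calcium-high libraries with the most Hmox1 were the 3 with the highest sum, and in pair 7 both measures were close between the groups. Cd68 led the sum in calcium-high replicate 4 (2.61 RPKM), F13a1 in replicates 5 and 6 (6.13 and 3.16 RPKM), and Cd68 in all 7 calcium-low libraries (1.04 to 2.65 RPKM). Neutrophil markers were highest among calcium-high libraries in replicates 7 and 5, at 106 and 71.3 RPKM, and at 9.80 to 22.0 RPKM in the other 5. In replicates 7 and 5 the leading markers were the granule genes Mpo_1 (49.4 and 25.4 RPKM), Prtn3 (20.4 and 22.3 RPKM) and Elane (19.7% and 17.6% of the sum), while S100a8 was at most 6.30 RPKM and S100a9 at most 0.959 RPKM in any calcium-high library. In calcium-low replicate 3 S100a8 and S100a9 led, with 50.8% and 28.9% of the sum. The part of these cells in the Hmox1 result was not tested.

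**Figure D2:**
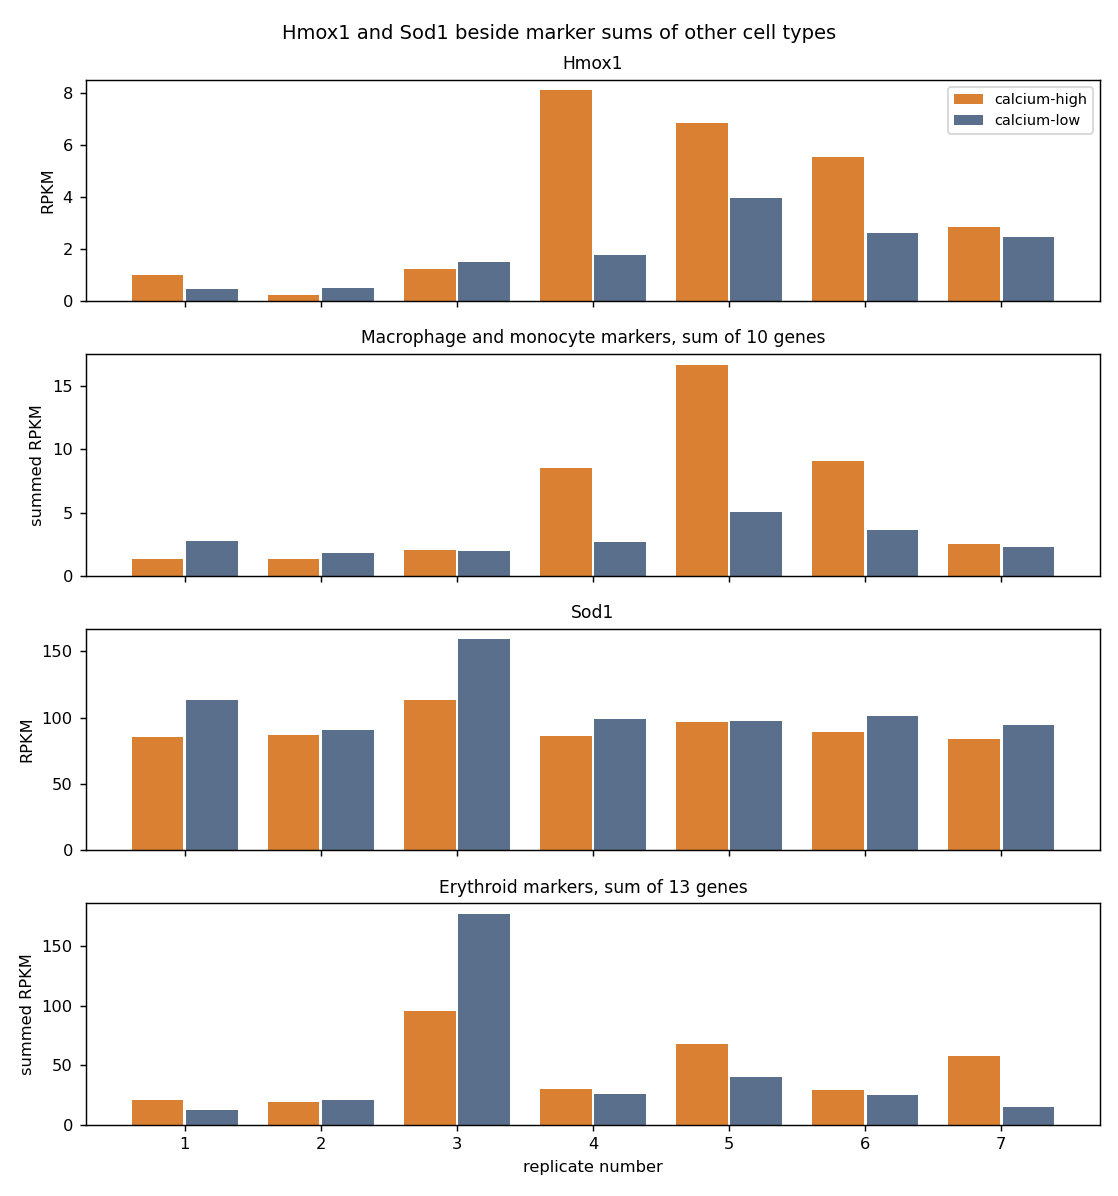
Hmox1, summed macrophage and monocyte markers, Sod1 and summed erythroid markers (RPKM) by replicate number, with the calcium-high bar left of the calcium-low bar. Hmox1 and the macrophage sum are both highest in calcium-high replicates 4 to 6, and Sod1 and the erythroid sum in calcium-low replicate 3.

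Nqo1, a quinone reductase that uses NADPH or NADH (chromosome 8, 107388225 to 107403206), was close to equal in the groups, 2.68 ± 0.558 RPKM in calcium-high libraries, against 2.65 ± 0.831 RPKM in calcium-low libraries. It ran from 1.75 through a median of 2.93 to 3.34 RPKM in calcium-high libraries and from 1.78 through 2.71 to 4.23 RPKM in calcium-low libraries. Nqo1 was higher in calcium-high libraries in 6 of 7 pairs, with log2 differences of 0.02 to 0.36, and lower in pair 3, at -0.93. Calcium-low replicate 3, at 4.23 RPKM, was the highest library, and calcium-high replicate 3, at 1.75 RPKM, the lowest. The log2 difference was 0.02 with a 95% interval of -0.28 to 0.33 (limma adjusted p = 0.998). Over all libraries Nqo1 ran from 1.75 to 4.23 RPKM, and Hmox1 from 0.222 to 8.09 RPKM.

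**Figure D3:**
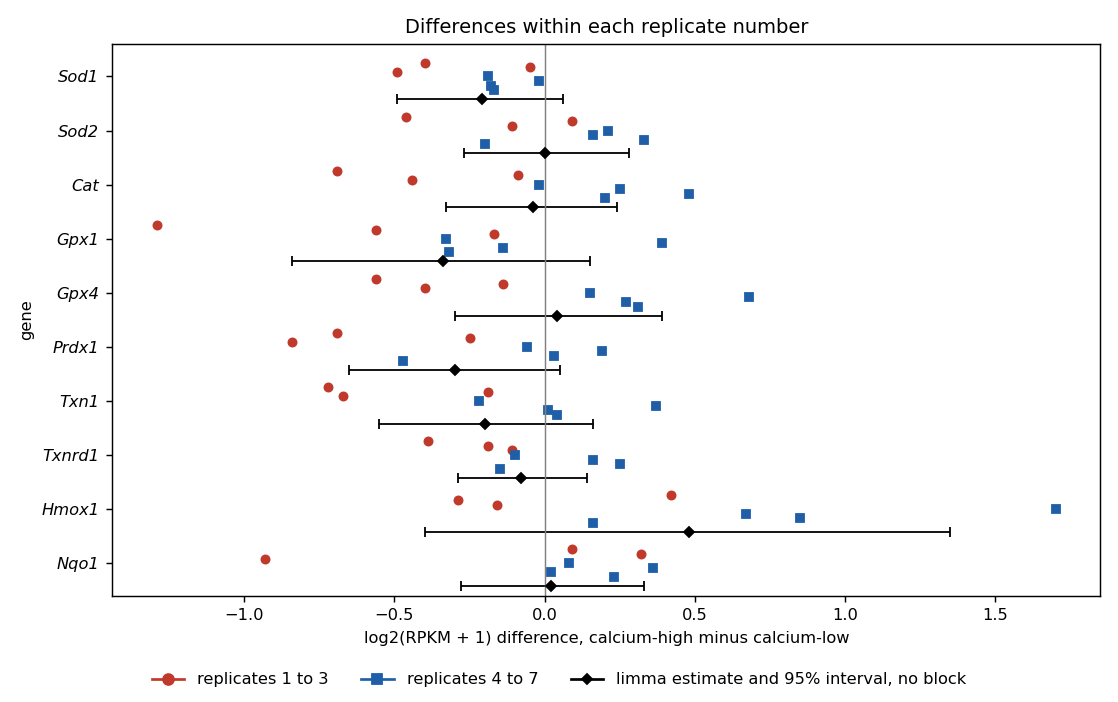
Differences within each replicate number, calcium-high minus calcium-low, on the log2(RPKM + 1) scale for each member. Circles are replicates 1 to 3, squares replicates 4 to 7, and diamonds with bars the limma estimate and its 95% interval without the block. The 10 intervals all include 0, and Sod1 has all 7 points below 0.

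The 2 sets of libraries were also fitted apart. In replicates 1 to 3 all 10 log2 differences were below 0, with a median of -0.34, and 83.2% of all tested genes were lower there, with a median of -0.20. Relative to that median, 7 of 10 members lay below. In replicates 4 to 7 the log2 differences were above 0 for 7 members and below for 3, with a median of 0.09, and 26.2% of all tested genes were lower there, with a median of 0.11. Relative to that median, 5 of 10 members lay below. Sod1, Gpx1 and Prdx1 were the members below 0 in both sets, at -0.31, -0.67 and -0.59 in replicates 1 to 3 and -0.14, -0.10 and -0.07 in replicates 4 to 7. Median-of-ratios factors, the median ratio of a library's genes to their geometric means, were 0.897 to 0.95 in calcium-high libraries of replicates 1 to 3. In calcium-low libraries of that set they were 0.998 to 1.18. In replicates 4 to 7 they were 1.02 to 1.11 in calcium-high and 0.92 to 0.995 in calcium-low libraries. The fits of each set used RPKM without this scaling, and the part of scaling in their signs was not tested.

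The difference between the sets was itself tested, as the calcium difference in replicates 4 to 7 minus that in replicates 1 to 3. It was positive for all 10 members, from 0.18 for Sod1 to 0.85 for Hmox1, with a median of 0.55. The median of all tested genes was 0.31, and 10.1% of them were below 0, so a positive value was common to most genes. The smallest limma adjusted p was 0.112, shared by Cat (0.64 ± 0.20, SE) and Gpx4 (0.72 ± 0.23, SE). In that test limma called 0 of 10 members and 0% of all tested genes, with 2 members (Cat and Gpx4) and 28.6% of all tested genes at an unadjusted p under 0.05. By pair, 8, 8, 10, 6, 1, 2 and 5 of the 10 members were lower in calcium-high libraries in pairs 1 to 7. The member medians were -0.51, -0.17, -0.42, -0.04, 0.31, 0.14 and -0.06. Over all tested genes the medians of the 7 pairs were -0.25, -0.11, -0.22, 0.02, 0.12, 0.16 and 0.10, so the members and all genes had the same sign in 5 of 7 pairs.

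**Figure D4:**
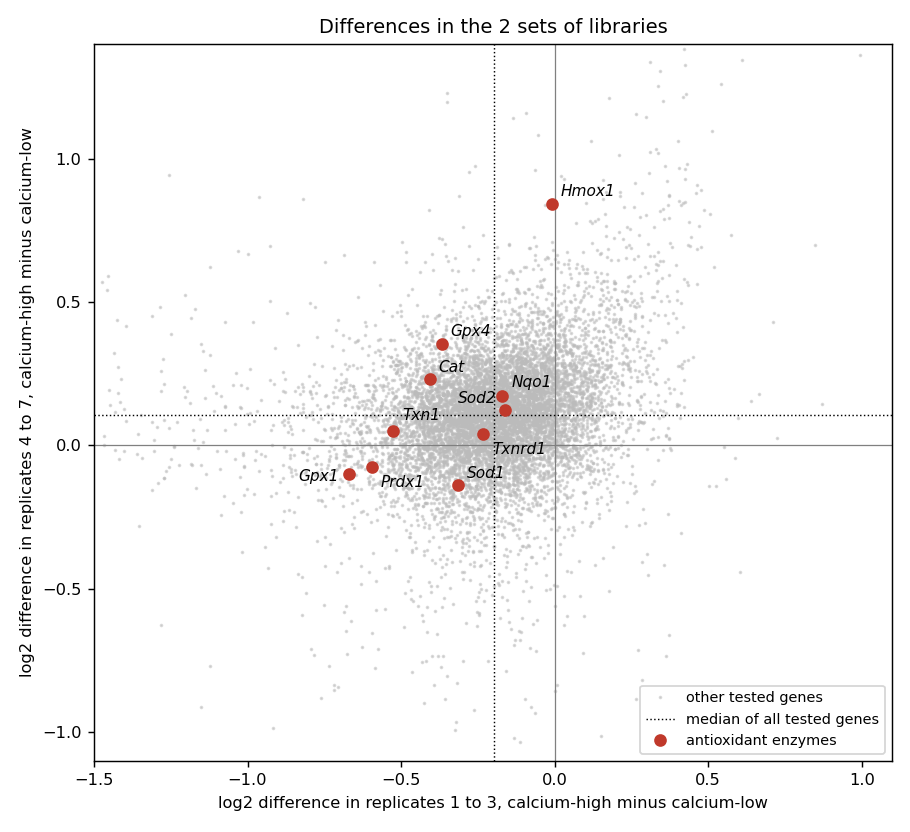
Log2 differences, calcium-high minus calcium-low, in replicates 1 to 3 (x) and in replicates 4 to 7 (y), for the 10 antioxidant enzymes (labelled) and the other tested genes (grey). Dotted lines are the medians of all tested genes, and 57 genes lie outside the axes. The members lie within the cloud of all genes, with Hmox1 near its upper edge and Gpx1, Prdx1 and Sod1 below 0 on both axes.

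The sets also differed in level, apart from the calcium groups. Hmox1 averaged 4.27 ± 2.30 RPKM in the 8 libraries of replicates 4 to 7 and 0.824 ± 0.505 RPKM in the 6 of replicates 1 to 3 (SD), a ratio of 5.18 with no overlap. Every library of replicates 4 to 7 lay above every library of replicates 1 to 3 in 6.55% of all tested genes. Gpx1 averaged 123 ± 22.1 RPKM in replicates 4 to 7 and 79.0 ± 29.6 RPKM in replicates 1 to 3, a ratio of 1.56 with overlap. For the other 8 members the ratio lay between 0.807 (Sod2) and 1.22 (Prdx1), and the sets overlapped. The sets differ in depth as well as in whatever else separates them, and these cannot be told apart.

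RPKM is divided by the length of the gene model, so the order of levels between genes depends on the lengths used. It also depends on how reads with several matches were counted, which is not given. Over the 14 libraries the order of mean levels was Gpx1 (104 ± 33.4 RPKM, SD), Sod1 (99.7 ± 19.4), Prdx1 (50.4 ± 11.4), Txn1 (27.4 ± 7.20), Gpx4 (22.1 ± 5.32), Cat (17.3 ± 3.08), Txnrd1 (15.1 ± 1.63), Sod2 (6.03 ± 1.17), Hmox1 (2.79 ± 2.47) and Nqo1 (2.66 ± 0.680). The order of the first and of the last neighbours differed between the sets. Gpx1 was above Sod1 in 8 of 8 libraries of replicates 4 to 7 and in 1 of 6 of replicates 1 to 3, and Hmox1 was above Nqo1 in 4 of 8 and in 0 of 6. Sod1 was above Prdx1, Prdx1 above Txn1, and Txnrd1 above Sod2 in 14 of 14 libraries. The remaining neighbours kept their order in 12 or 13 of 14 libraries. Gpx1 and Sod1 stood at the 99.0th percentile of all tested genes, Txnrd1 at the 90.7th, Sod2 at the 66.2nd, and Hmox1 and Nqo1 at the 32.5th and 30.5th. The cytosolic dismutase had a far higher RPKM than the mitochondrial one, 91.7 and 6.02 RPKM in calcium-high HSCs, against 108 and 6.05 RPKM in calcium-low HSCs. Over the 14 libraries Sod1 had 24214 reads on a length of 648 bases implied by the values, and Sod2 had 8526 reads on 3824 bases. Much of this gap in RPKM therefore rests on the lengths.

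Genes most like each member over the 14 libraries were found by the mean absolute difference of centred log2(RPKM + 1) profiles, among the 1776 genes whose mean reached 10 RPKM. Prdx1 lay closest to Ppia (cyclophilin A) and Wbp11, at 0.071 and 0.087, against its own mean deviation of 0.299. Gpx1 lay closest to Shmt2, the mitochondrial serine hydroxymethyltransferase, and to the ribosomal protein gene Rpl41, at 0.107 and 0.118, against its own 0.420. Txn1 lay closest to Ppm1g and Ppp1ca_2 (0.076 and 0.089, against 0.250), and Gpx4 to Bsg and Smarcc2 (0.092 and 0.10, against 0.227). Sod1 lay closest to Hnrnpc and Isca1 (0.073 and 0.076, against 0.163), and Sod2 to Appbp2 and Rab10 (0.077 and 0.086, against 0.169). For Cat the closest were Eif3l and Tmbim4 (0.080 and 0.086, against 0.177), for Txnrd1 Rps23 and Ywhag (0.068 and 0.073, against 0.119), and for Nqo1 Qdpr (0.129, against 0.212). For Hmox1 the nearest were the transcription factor gene Gfi1b and Prrc2a_1, at 0.350 and 0.387, against its own 0.740. The profiles share libraries, depth and scaling, and the values are a description.

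Other genes of the antioxidant network were read in 7 lists. Of their 123 genes, 114 were listed and 94 labels tested. By limma 0 of the 94 were called higher and 0 lower, with or without the block. The background was 0% of all tested genes without the block and 0.917% with it, so 0 of 94 was near the background. Of the 94, 44 were higher and 50 lower in calcium-high HSCs. Other superoxide dismutases, glutathione peroxidases and peroxiredoxins had 4 of 7 higher (median log2 difference 0.01), the thioredoxin and glutaredoxin system 11 of 20 (0.00), and glutathione synthesis, recycling and transferases 9 of 19 (-0.04). The NRF2 axis with haem and iron handling had 9 of 18 higher (0.00), the enzymes of NADPH supply 4 of 13 (-0.09), the superoxide-producing oxidases 3 of 6 (-0.01) and selenoprotein synthesis 4 of 11 (-0.05). The median of all tested genes was -0.03. In each of the 7 lists the median was below 0 in replicates 1 to 3, from -0.32 to -0.09, and above 0 in replicates 4 to 7, from 0.07 to 0.23. The medians of all tested genes in these sets were -0.20 and 0.11, with the same signs.

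The genes with the smallest p in each list, taken from the fit with the block, did not pass either. They were picked by differences within pairs, so their counts of pairs add no support. Srxn1, sulfiredoxin, which restores overoxidised peroxiredoxins and is a known NRF2 target, averaged 3.49 ± 0.624 RPKM in calcium-high libraries, against 2.52 ± 0.569 RPKM in calcium-low libraries. It was higher in 7 of 7 pairs, as were 2.49% of all tested genes (limma adjusted p = 0.523, and 0.107 with the block). Gclm, the modifier subunit of the enzyme that limits glutathione synthesis, averaged 12.0 ± 1.86 RPKM in calcium-high HSCs, against 14.5 ± 2.95 RPKM in calcium-low HSCs. It was lower in 7 of 7 pairs, as were 3.02% of all tested genes (adjusted p = 0.777, and 0.198 with the block, limma). Slc3a2, the heavy chain of the cystine transporter, averaged 8.09 ± 1.92 RPKM in calcium-high libraries, against 9.91 ± 1.80 RPKM in calcium-low libraries, also lower in 7 of 7 pairs (0.827, and 0.180 with the block, limma adjusted p).

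Ncf4, a cytosolic subunit of the phagocyte oxidase that makes superoxide, came nearest to the threshold with the block. It averaged 2.43 ± 1.31 RPKM in calcium-high HSCs, against 3.69 ± 1.85 RPKM in calcium-low HSCs, lower in 6 of 7 pairs (limma adjusted p = 0.880, and 0.0544 with the block). Ncf1, another subunit of that oxidase, averaged 1.37 ± 1.12 RPKM in the calcium-high group and 1.63 ± 0.652 RPKM in the calcium-low group, lower in 4 of 7 pairs. Vimp, a selenoprotein of the endoplasmic reticulum, averaged 3.69 ± 1.48 RPKM in calcium-high libraries, against 4.21 ± 1.32 RPKM in calcium-low libraries. It was lower in 7 of 7 pairs, as were 3.02% of all tested genes (limma adjusted p = 0.359 with the block). Sephs2, which makes the selenium donor for selenocysteine, averaged 7.27 ± 2.06 RPKM in the calcium-high group and 8.68 ± 1.30 RPKM in the calcium-low group, lower in 6 of 7 pairs. Of the remaining genes named by the same rule, Prdx5, Sesn3, Nfe2l1 and Aldh1l1 were at higher and Mafk and Taldo1 at lower mean levels in calcium-high HSCs, with limma adjusted p from 0.233 to 0.647 with the block.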

How the data were processed

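Total RNA of sorted HSCs was made into cDNA with not-so-random primers and Nextera XT libraries and sequenced on a NextSeq system, per the labels' protocols. The authors deposited 1 file of RPKM values per library, with 48737 labels each. The unit was read from the values. The submitters' processing notes name GRCm38, mm10 and edgeR, with no role or version, and the aligner, the counting tool and its treatment of reads with several matches are not given in the sources used here. Labels turned into serial numbers (23) were dropped. The values of each gene were whole multiples of 1 read's worth (9848 of 9848 genes within 0.02 reads, against 0 of 500 jittered ones), which gave reads per library.

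The test was limma 3.58.1 in R 4.3.3, with log2(RPKM + 1) as the response and a trend of the variance with the mean, calcium-high minus calcium-low, over 9921 labels with a mean of 1 RPKM or more and Benjamini-Hochberg adjustment over all of them. A pseudocount of 1 understates the differences of low genes such as Hmox1 and Nqo1. The replicate number was used as a block in a second fit: libraries with the same number deviated together (correlation 0.384 to 0.715 in 7 of 7 pairs, each over 0.1). The labels give only the shared number, and the pairing comes from this check. It is weak: 2 of 7 calcium-high and 3 of 7 calcium-low libraries correlated best with their own number, and after centring within the library sets pairs 1 to 3 had correlations of 0.276 to 0.552, and pairs 4 to 7 had -0.0647 to 0.123. The code was tested on simulated data that held no pair or library-set effects, so that test cannot show how the fits handle them. Tables were made with pandas 2.3.3, numpy 2.4.6 and Python 3.11.15, and figures with matplotlib 3.10.9. Alternatives were median-of-ratios scaling, pseudocounts of 0.1 and 5, no filter, a term for the library set, either set alone, limma-voom on the recovered reads, and leaving out libraries or pairs. The members, the 7 pathway lists and the 7 marker lists were chosen with earlier results of these data known. Genes outside the members were named by rule: any called, the 2 with the smallest p per list with the block, and the 2 nearest profiles per member, of which 1 gene is not reported here. Gene positions are those of GENCODE M21 (GRCm38), where no other gene's exons overlap those of a member. The labels Gpx4-ps, Prdx1-ps and Txn-ps1 were listed at 0 in all libraries.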

Additional observations from a re-analysis of the deposited data

Results flagged for a closer look

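In 34 groups of 7 values (members and marker sums), 7 had a lowest or highest library whose gap to its neighbour, as a share of the whole range, exceeded Dixon's critical value on the log2(RPKM + 1) scale. Chance flags about 1 in 20 groups. Among calcium-low libraries, Sod1 stood high in replicate 3 (159 RPKM, share 0.596), Gpx4 high in replicate 1 (28.7 RPKM, share 0.620) and Prdx1 low in replicate 2 (37.1 RPKM, share 0.633). Calcium-low replicate 3 also stood high in the sums of neutrophil markers (771 RPKM, share 0.723), erythroid markers (177 RPKM, share 0.577) and cell cycle genes (278 RPKM, share 0.654). The HSC marker sum stood low in calcium-high replicate 3 (191 RPKM, share 0.648). The causes were not tested.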

How the results depend on the processing

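The count of members called was 0 as reported, in the alternatives of scaling, pseudocount, filter, block, library set and limma-voom taken singly, and when single libraries or pairs were left out. It was 1 (Hmox1) in 2 alternatives chosen after the data were seen: replicates 4 to 7 with the replicate block, and limma-voom with the replicate block. The count of all genes called was 0 as reported and in replicates 1 to 3 alone, 4 with median-of-ratios scaling, 1 with no filter, 91 with the replicate block, 51 with the library set as a term, 808 in replicates 4 to 7 alone and 714 with limma-voom. With choices added after the data were seen it was 119 without replicate 3 of both groups, 288 with median-of-ratios scaling and the block (216 higher, 72 lower, against 48 and 43 without that scaling), 656 in replicates 4 to 7 with the block and 855 with limma-voom and the block. Without single libraries it ran from 0 to 101 (calcium-high replicate 3), with 20, 5 and 2 without calcium-low replicates 3, 2 and 1. With the block and without single pairs it ran from 0 to 302, with 302 without pair 3, 12, 8, 3 and 2 without pairs 5, 1, 2 and 6, and 0 without pairs 4 or 7. The cause was not tested.

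Of 340 member values under alternatives, 297 kept direction and side of the threshold, 41 changed sign and 2 (Hmox1, above) passed. Cat was above 0 with limma-voom (0.08, and 0.04 with the block), in replicates 4 to 7 (0.23 with or without the block) and without replicate 3 of both groups (0.02). In replicates 1 to 3 Gpx4 was at -0.37, Hmox1 at -0.01, Nqo1 at -0.17 and Sod2 at -0.16. Sod2 was at -0.00 with a pseudocount of 5. In replicates 4 to 7, with or without the block, Txn1 was at 0.05 and Txnrd1 at 0.04. Without single libraries the differences ran from -0.11 to 0.03 for Cat, -0.07 to 0.13 for Gpx4, -0.04 to 0.12 for Nqo1 and -0.06 to 0.08 for Sod2. With the block and without single pairs they ran from -0.13 to 0.07 for Cat, -0.06 to 0.15 for Gpx4, -0.03 to 0.18 for Nqo1 (-0.02 without pair 2) and -0.05 to 0.08 for Sod2 (-0.02 without pair 5). Sod1, Gpx1, Prdx1, Txn1, Txnrd1 and Hmox1 kept their sign when single libraries or pairs were left out, and Hmox1 ran from 0.26 to 0.75 without single libraries. Depth limits Hmox1 most in replicates 1 to 3, where it rests on 5 to 55 reads. Nqo1 rests on 43 to 183 reads, and the other members on 288 or more in each library.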
